A study of Mus musculus with 2 samples.

Results

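A set of 10 genes of the Notch pathway was followed through the cells of the embryonic mouse pancreas: the receptors Notch1, Notch2 and Notch3, the ligands Dll1, Jag1 and Jag2, the glycosyltransferase Lfng, the DNA-binding factor Rbpj, and the target genes Hes1 and Nrarp. They were taken by name and are 10 of the 22023 genes listed in both count tables. Another 50 genes of the pathway, among them the ligand-processing enzymes, Notch-cleaving proteases and coactivators, serve as context. Single-cell RNA sequencing of fetal pancreas at E15.5 was done on the BD Rhapsody microwell platform, in which beads capture the RNA of each cell and unique molecular identifiers (UMIs) count its molecules. Mettl3pKO embryos lack Mettl3 in their Pdx1+ pancreatic progenitors, whereas WT embryos are wild type. Mettl3 carries the active site of the methyltransferase complex that places N6-methyladenosine in messenger RNA. Each genotype is 1 library, so no difference between genotypes has a replicate check and none was tested. The labels name neither the Cre driver nor the deleted exons nor the number of embryos in a library, and cells outside the Pdx1+ lineage, such as mesenchyme, are not targeted in this model.

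Notch signalling passes between touching cells. A Delta or Jagged ligand on the sending cell pulls on a Notch receptor of the receiving cell, the receptor is cut, and its inner part joins Rbpj on DNA to switch on targets such as Hes1, a repressor, and Nrarp, which limits the signal. In the developing pancreas, cells that make the endocrine factor Neurog3 also make Dll1, and Hes1 in their neighbours represses Neurog3, a scheme known as lateral inhibition. Lfng adds sugars to the receptors and shifts their response from Jagged to Delta ligands.

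Rbpj binds DNA at the core motif TGGGAA, whose letters on the opposite strand read TTCCCA. RefSeq promoters of GRCm38.p6 were found for 9 of the 10 genes. None was found for Hes1, whose promoter was therefore not searched. For the other genes the motif was searched on both strands in the 250 bases before each annotated start. It lay in the promoters of 2 of these 9 genes, Lfng and Rbpj itself, and in 21.6% of all 32851 promoters of that length. The 30-base stretches with the matches are shown because they are the places in these promoters where the pathway's own factor has its core letters, which are in capitals.
Lfng, 135 bases before the start, chr5:140607194-140607223, plus strand: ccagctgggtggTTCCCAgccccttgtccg
Lfng, 108 bases before the start, chr5:140607221-140607250, plus strand: ccgtatcccacgTGGGAAggagagatctcc
Rbpj, 149 bases before the start, chr5:53590185-53590214, plus strand: aatgaaaaaggcTGGGAAcccgcggcgagc
Rbpj, 65 bases before the same start, chr5:53590269-53590298, plus strand: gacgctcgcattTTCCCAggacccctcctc
Such a match is a description of the letters and not a measured binding site. The E-box CAGATG, a form of the motif that Neurog3 and related factors bind, was in none of the 9 genes' windows and in 14.4% of all promoters.

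The Mettl3pKO library held 3624 complete cells, 65779771 UMIs and a median of 16481 UMIs per cell. The WT library held 6384 complete cells, 80011421 UMIs and a median of 10824.0 UMIs per cell. The shallowest cell had 10719 UMIs in the Mettl3pKO table and 3803 in the WT table, and 33 cell indices occurred in both libraries. Shares of cells with a ligand or receptor UMI are therefore compared on cells thinned to 7815 UMIs each. Shares of proliferating cells were counted without thinning, and the part of depth in them was not tested. Mettl3 stood at 8.21 counts per 1000000 UMIs (CPM) in Mettl3pKO epithelial cells and at 13.02 CPM in WT epithelial cells, 0.631 times WT (95% interval 0.559 to 0.711); whether the counted reads lie in the deleted part is not known. Cells were clustered without the 60 Notch genes and named by marker genes. The names are rebuilt, are written as X-like and may differ from the submitters' own. By class, Mettl3 stood at 0.771 times WT in acinar-like (0.650 to 0.916) and 0.669 times in duct and trunk-like cells (0.520 to 0.855). It stood at 0.734 times in alpha-like and 0.603 times in beta-like cells. Outside the epithelium it was at 0.828 times in mesenchyme-like cells (0.598 to 1.13). It was at 1.62, 0.937 and 0.333 times in mesothelium-like, immune and erythroid-like cells. Doublets were marked in 5.30% of WT cells and removed, but in 0.0276% of Mettl3pKO cells, so doublets remain in Mettl3pKO. Acinar digestive enzymes held 1.77% of the UMIs of Mettl3pKO alpha-like cells and 0.288% in WT alpha-like cells, 1.44% and 0.194% in mesothelium-like cells, and 5.24% and 2.46% in erythroid-like cells. All intervals given are 95% intervals and cover counting error only.

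The pathway's parts were spread unevenly over the cell classes, and the epithelium and the surrounding tissue differed in the ligands and receptors they held most. Class sizes were 2117 Mettl3pKO and 1858 WT acinar-like cells, 444 and 1302 duct and trunk-like cells (the bipotent progenitors of duct and endocrine cells together with early duct), 171 and 299 alpha-like cells, 164 and 251 beta-like cells, and 270 and 1149 mesenchyme-like cells. Endocrine progenitor-like cells numbered 4 in Mettl3pKO and 160 in WT, and Fev precursor-like cells 24 and 283, so that their levels in Mettl3pKO rest on very few cells. A class-summed level of a gene does not separate fewer expressing cells from less RNA per cell.

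Notch1 (chr2:26457903-26516663, minus strand of mm10) was held by acinar-like and duct and trunk-like cells alike. It stood at 112 CPM in Mettl3pKO acinar-like cells and 103 CPM in WT ones, and at 61.1 and 85.5 CPM in duct and trunk-like cells. In WT it was highest in mural-like cells (208 CPM) and endothelium-like cells (199 CPM), whose intervals overlap. WT endocrine progenitor-like cells, at 5.45 CPM (2.35 to 10.7), lay at the low end of the order, next to mesothelium-like cells at 6.004 CPM. Alpha-like cells had more of it than beta-like cells, with 52.9 and 29.9 CPM in Mettl3pKO and 43.6 and 18.9 CPM in WT.

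Notch2 (chr3:98013527-98150361, plus strand) was higher on the duct side of the epithelium. It stood at 93.7 CPM in Mettl3pKO duct and trunk-like cells and 117 CPM in WT ones, but at 19.2 and 7.65 CPM in acinar-like cells. Within WT, duct and trunk-like cells led, followed by mesenchyme-like (99.6 CPM) and mesothelium-like cells (92.6 CPM), which did not differ beyond counting error. WT beta-like cells had the lowest level, 1.47 CPM, with an interval that overlaps those of Fev precursor-like and endocrine progenitor-like cells (3.41 and 4.09 CPM). Notch3 (chr17:32120820-32166852, minus strand), a receptor known from the smooth muscle of vessels, stood at 489 CPM in 28 Mettl3pKO mural-like cells and 552 CPM in 90 WT ones. Mesenchyme-like cells came next with 87.8 and 90.0 CPM, then duct and trunk-like cells with 39.5 and 32.6 CPM. Acinar-like cells had 4.42 CPM in Mettl3pKO and 1.54 CPM in WT.

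Among the WT class averages, Dll1 (chr17:15367354-15376872, minus strand) was highest in endocrine progenitor-like cells. WT endocrine progenitor-like cells held 49.8 CPM (39.0 to 62.6), apart from the next class, endothelium-like cells, at 16.6 CPM (8.58 to 29.0). The Neurog3-rich WT cells described below, which also take in duct and trunk-like cells, held 97.7 CPM. The class averages thus do not show the highest Dll1 level. The 4 Mettl3pKO endocrine progenitor-like cells held 11 Dll1 UMIs, 191 CPM with an interval from 95.5 to 342 CPM. Alpha-like, Fev precursor-like, duct and trunk-like, beta-like and acinar-like cells of WT lay between 9.51 and 14.6 CPM, with no gap between neighbours. Mesenchyme-like cells were at 0.523 CPM in Mettl3pKO and 0.643 CPM in WT, and the 202 WT mesothelium-like cells had 0 UMIs, which allows up to 1.501 CPM. Epithelial cells held 92.6% of the Dll1 UMIs of the Mettl3pKO library and 95.7% of those of WT. Acinar-like cells alone held 77.5% in Mettl3pKO and 36.4% in WT, and duct and trunk-like cells 4.18% and 27.3%.

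Jag1 (chr2:137081456-137116644, minus strand) was highest in the supporting tissue. It stood at 187 CPM in Mettl3pKO and 180.1 CPM in WT mural-like cells, at 63.2 and 102 CPM in mesenchyme-like cells, and at 43.0 and 29.6 CPM in duct and trunk-like cells. Mesenchyme-like cells held 10.8% of the Jag1 UMIs of the Mettl3pKO library and 44.0% of those of WT. Endocrine classes were low: alpha-like cells had 6.07 CPM in Mettl3pKO and 2.19 CPM in WT. Jag2 (chr12:112907819-112929776, minus strand) was highest in WT endothelium-like cells (85.8 CPM), and, among epithelial classes of 30 or more cells, in beta-like cells, with 23.9 CPM in Mettl3pKO and 25.2 CPM in WT. The acinar-like level was 4.72 CPM in Mettl3pKO and 2.78 CPM in WT.

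Hes1 (chr16:30064384-30067796, plus strand) was detected in 3220 of 3622 Mettl3pKO cells and 4318 of 6034 WT cells. WT duct and trunk-like cells held 1179 CPM (1161 to 1196) and WT acinar-like cells 649 CPM, whereas endocrine progenitor-like cells had 43.0 CPM (33.0 to 55.0), alpha-like cells 21.5 CPM, beta-like cells 16.9 CPM and Fev precursor-like cells 9.21 CPM. In Mettl3pKO the acinar-like level of 1034 CPM (1024 to 1044) exceeded the duct and trunk-like level of 963 CPM (941 to 986). For comparison, the 69 WT cells of an erythroid-like cluster nearly free of enzyme UMIs held no UMI of Dll1, Jag1 or Notch3. Their Hes1 level was 8.31 CPM, near that of WT Fev precursor-like cells. The same erythroid-like cells held 18.7 CPM of Notch2, 35.3 CPM of Lfng and 35.3 CPM of Rbpj, above the 1.47, 5.39 and 32.4 CPM of WT beta-like cells. Whether they measure the stray RNA of other classes was not tested.

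Nrarp (chr2:25180758-25183339, plus strand) followed the duct side among epithelial classes: 72.2 CPM in Mettl3pKO and 59.7 CPM in WT duct and trunk-like cells, against 17.0 and 8.89 CPM in acinar-like cells. Its highest WT level was in endothelium-like cells, 204 CPM. Mesenchyme-like cells, which have receptors and Hes1, were close to free of it, with 0.784 CPM in Mettl3pKO and 0.459 CPM in WT. Lfng (chr5:140607320-140615545, plus strand) had the reverse order in the epithelium, with 100.2 CPM in Mettl3pKO and 122 CPM in WT acinar-like cells, 29.4 and 14.5 CPM in duct and trunk-like cells, and 43.6 CPM in WT endocrine progenitor-like cells. Rbpj (chr5:53466152-53657362, plus strand) was present in each class, with the highest WT levels in endocrine progenitor-like and immune cells (both 194 CPM) and a low level in acinar-like cells, 35.3 CPM in Mettl3pKO and 28.7 CPM in WT.

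**Figure D1:**
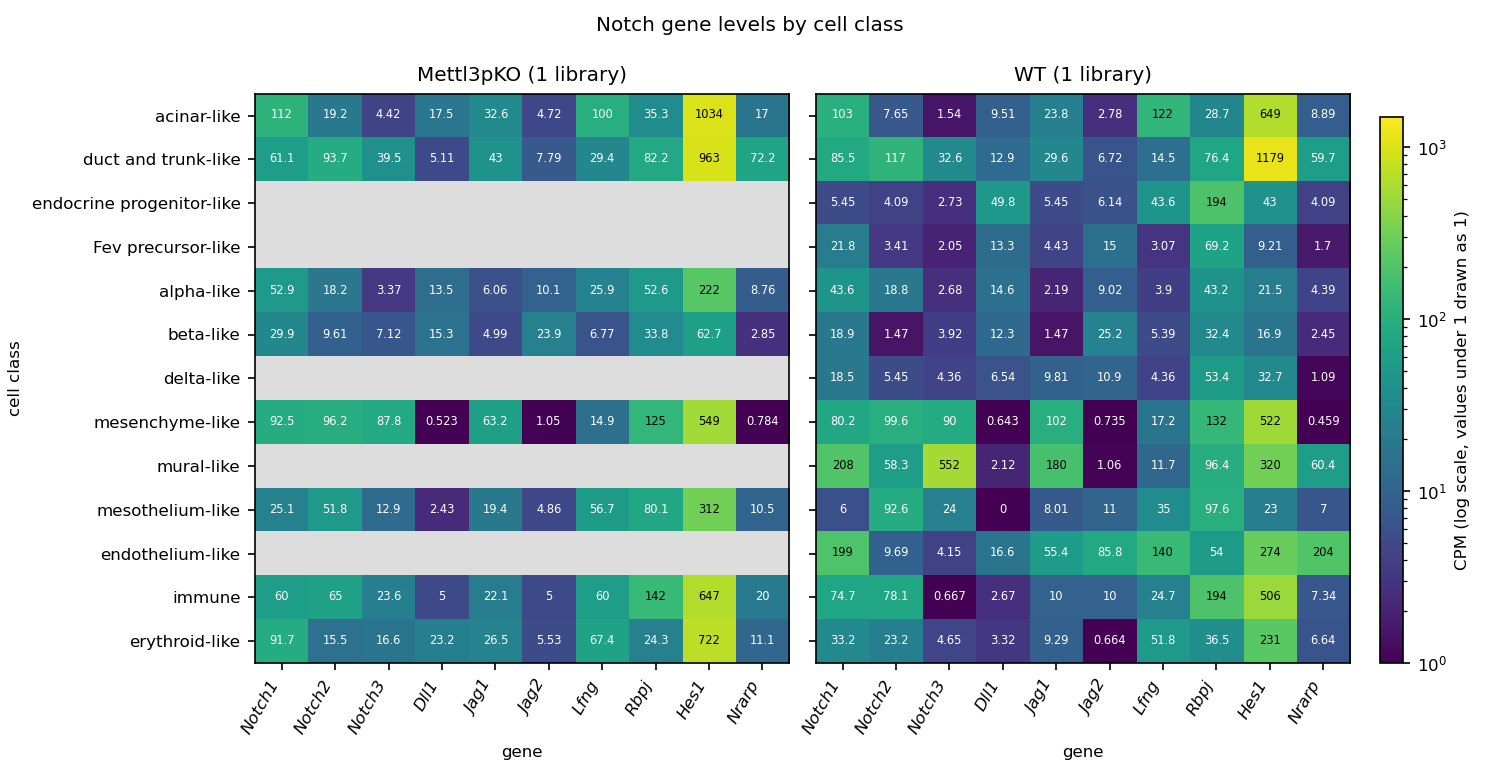
Level of each of the 10 genes (columns) in each cell class (rows), for Mettl3pKO on the left and WT on the right. Levels are CPM of UMIs summed per library and class on a logarithmic colour scale. Grey marks classes with fewer than 30 cells in that library. Hes1 is highest in the duct and trunk-like and acinar-like rows, with 963 and 1034 CPM in Mettl3pKO and 1179 and 649 CPM in WT. Among the WT rows, Dll1 is highest in endocrine progenitor-like cells at 49.8 CPM.

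Counted per cell, WT endocrine progenitor-like cells were senders with few receptors. After thinning, 26 of 114 of them (22.8%) had a UMI of Dll1, Jag1 or Jag2, and 10 of 114 (8.77%) had a UMI of Notch1, Notch2 or Notch3. A ligand without any receptor was seen in 24 of 114 (21.1%), against 6.89% of WT duct and trunk-like cells and 8.94% of WT acinar-like cells. Fev precursor-like and beta-like cells of WT came near it, at 18.1% and 20.5%.

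Duct and trunk-like cells were mostly receivers. A receptor UMI was found in 74.3% of them in Mettl3pKO and 79.3% in WT, and a ligand UMI in 34.2% and 27.8%. Of acinar-like cells, 60.5% in Mettl3pKO and 55.0% in WT had a receptor. A ligand was seen in 693 of 2117 Mettl3pKO acinar-like cells (32.7%, 30.7 to 34.8) and in 393 of 1723 WT ones (22.8%, 20.8 to 24.9); without thinning the shares were 57.5% and 36.1%. The Dll1 part of this was 12.4% of acinar-like cells in Mettl3pKO and 6.62% in WT. Thinning left out 135 WT acinar-like, 155 WT duct and trunk-like and 46 WT endocrine progenitor-like cells, which were shallower.

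Mesenchyme-like cells had a ligand and a receptor in the same cell in 28.5% of cells in Mettl3pKO and 41.0% in WT, beside 26.6% and 20.9% of duct and trunk-like cells. Their receptor shares were 85.2% and 81.9% and their ligand shares 34.1% and 48.6%. WT mural-like cells had a receptor in 95.9% and a ligand in 65.8% of cells. No share of ligand-positive cells shows which cells touch, since the cells were dissociated.

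**Figure D2:**
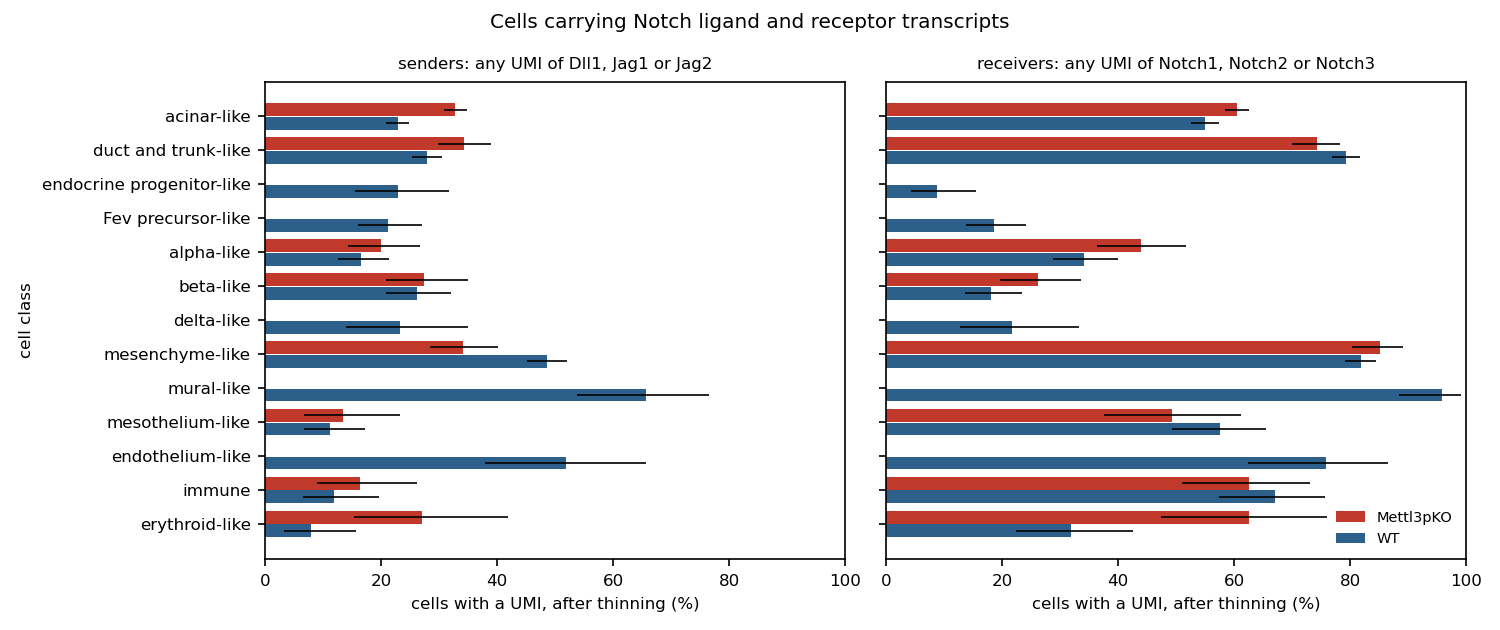
Percent of cells, after thinning to 7815 UMIs per cell, with a UMI of any of the 3 ligands or any of the 3 receptors in each class, with Mettl3pKO bars above WT bars and lines for Clopper-Pearson 95% intervals; bars are drawn for classes with 30 or more cells in the library. WT endocrine progenitor-like cells have the lowest receptor share, 8.77%, while their ligand share of 22.8% equals that of WT acinar-like cells.

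The sender and receiver states were next read against Neurog3, the factor that commits trunk cells to the endocrine fate. Duct and trunk-like and endocrine progenitor-like cells were pooled and divided by their Neurog3 UMIs per 10000. A level of 10 or more was found in 11 of 448 Mettl3pKO cells (2.46%, 1.23 to 4.35) and in 228 of 1462 WT cells (15.6%, 13.8 to 17.6). Among cells of at least 13000 UMIs the shares were 8 of 358 (2.23%) and 30 of 336 (8.93%). The Mettl3pKO library held no cell under 10719 UMIs, and whether such cells were left out is not known. This bears on these shares, since Neurog3-rich WT cells had a median of 8910.5 UMIs.

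Across the WT groups with 0, above 0 and under 2, 2 to under 10, and 10 or more Neurog3 UMIs per 10000, Dll1 stood at 2.43, 3.15, 9.85 and 97.7 CPM. Dll1 was thus 40.2 times as high in the Neurog3-rich cells as in the cells without Neurog3 (27.4 to 60.9). The ratio was 12.6 when all epithelial cells other than acinar-like ones were split by Neurog3, and 66.0 in cells of at least 13000 UMIs. Hes1 was 1158, 1230, 1195 and 539 CPM over the same 4 groups, so that it differed little until the last. The last group mixes 2 classes with unlike Hes1 levels. WT endocrine progenitor-like cells held 43.0 CPM of Hes1. A WT duct and trunk-like cluster with Neurog3 at 1194 CPM held 1252 CPM, no less than the cells without Neurog3. The lower Hes1 of the Neurog3-rich group is therefore not separated from its mix of classes. Hes1 in the Neurog3-rich cells stood at 0.465 times the cells without Neurog3, at 0.826 times when all epithelial cells other than acinar-like ones were split, and at 0.730 times in cells of at least 13000 UMIs. The Neurog3-rich WT cells had a median of 8910.5 UMIs and those without Neurog3 10349. Notch1 followed Hes1 in shape, with 85.1, 79.5, 103 and 35.3 CPM. Notch3 and Nrarp were already lower in the group before: Notch3 had 36.2, 27.5, 8.44 and 4.30 CPM, and Nrarp 65.6, 60.6, 14.1 and 6.89 CPM. Jag1 also ran downward, with 31.6, 23.6, 19.7 and 9.90 CPM. Lfng ran upward with Dll1, from the second group on, with 7.87, 6.29, 33.8 and 66.7 CPM, and Rbpj had 73.4, 70.0, 85.8 and 167 CPM. The 4 groups held 1072, 98, 64 and 228 cells. Proliferating cells made up 10.96% of the Neurog3-rich WT cells and 56.1% of those without Neurog3, and the part of cell division in these differences was not tested.

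The few Neurog3-rich Mettl3pKO cells had a summed Dll1 level close to that of the WT ones. Dll1 stood at 98.1 CPM (57.1 to 157, from 17 UMIs) in the 11 Mettl3pKO cells and at 97.7 CPM (85.4 to 111, from 227 UMIs) in the 228 WT cells. Against the Mettl3pKO cells without Neurog3 this was a ratio of 22.0 (11.4 to 40.8). Hes1 in the Neurog3-rich cells was 358 CPM (274 to 459) in Mettl3pKO and 539 CPM (510 to 570) in WT. With 17 UMIs in Mettl3pKO, no difference in the pooled Dll1 level could be detected. The pools are not matched for class, since endocrine progenitor-like cells numbered 4 in Mettl3pKO and 160 in WT before the split. The pooled Dll1 and Hes1 levels therefore do not show whether the libraries were alike within a class.

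Single cells gave the same pairing in WT. Of the thinned WT cells with a Dll1 UMI, 71 of 91 (78.0%) also had a Neurog3 UMI, against 209 of 1170 without Dll1 (17.9%). Jag1 was seen in 6 of 91 Dll1-positive cells (6.59%) and in 208 of 1170 others (17.8%). Hes1 was seen in 69 of 91 (75.8%) and 1020 of 1170 (87.2%), so that most Dll1-positive cells also held Hes1 RNA. In Mettl3pKO, 4 of 18 Dll1-positive cells had Neurog3, against 15 of 430 others. Read the other way, 4 of 19 Neurog3-positive cells had Dll1 in Mettl3pKO (21.1%) and 71 of 280 in WT (25.4%). The Neurog3 share of WT acinar-like cells, which should lack it, was 1.68% at the same depth.

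**Figure D3:**
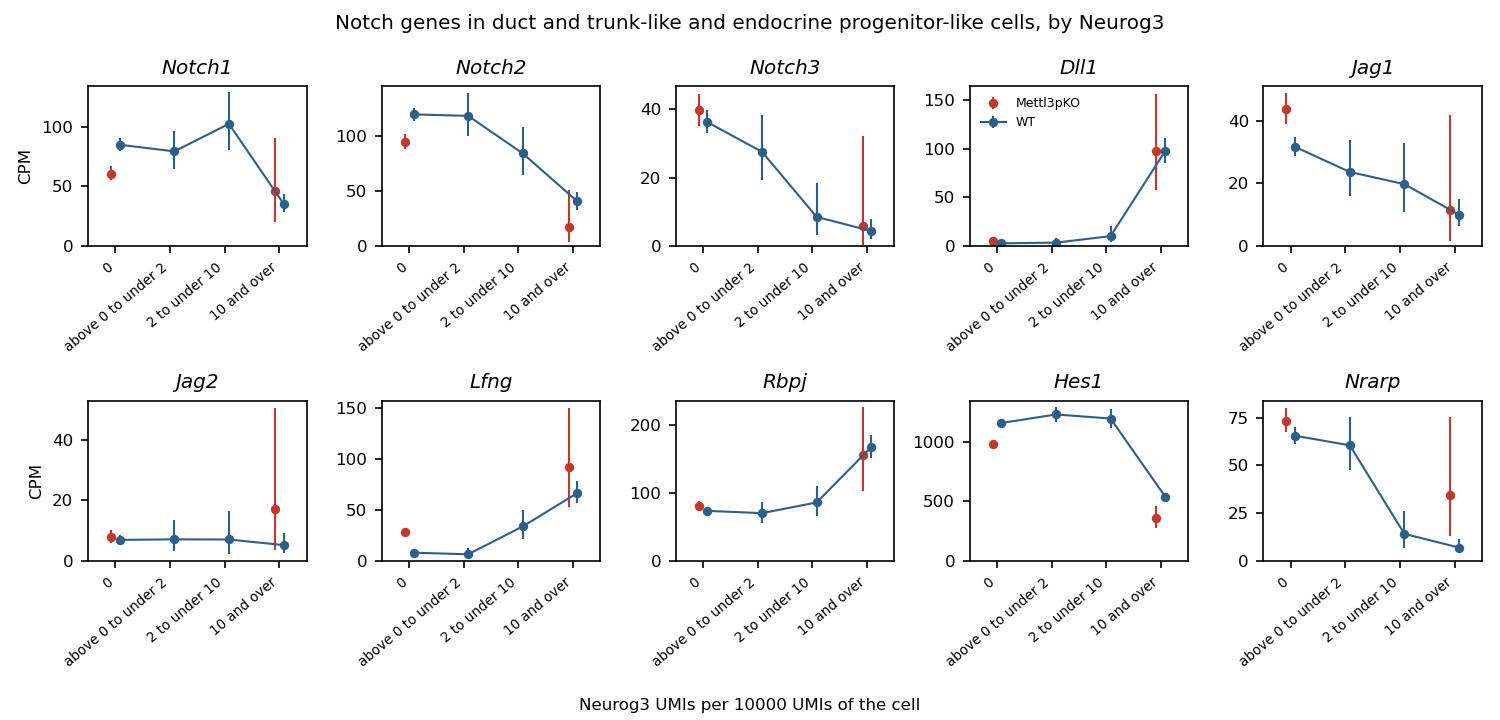
Level in CPM, with exact Poisson 95% intervals, of each of the 10 genes in duct and trunk-like and endocrine progenitor-like cells grouped by Neurog3 UMIs per 10000, for Mettl3pKO and WT; groups with fewer than 10 cells are not drawn, which leaves the lowest and the highest for Mettl3pKO. Dll1 reaches 98.1 CPM in Mettl3pKO and 97.7 CPM in WT in the Neurog3-rich group, where Hes1 is at 358 and 539 CPM. The group is not matched for class between the libraries.

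Mettl3pKO was then set against WT within each class that had 30 or more cells in both libraries. A gene is called higher or lower where its CPM differed by at least 1.5-fold and it had 20 or more UMIs over both libraries. In acinar-like cells 6 of the 10 genes were higher and 0 lower, where 20.9% of all measured genes were higher and 8.87% lower. Their median log2 ratio was 0.71, and that of all measured genes 0.16. The receptors Notch3 and Notch2 stood 2.88 times (2.04 to 4.13) and 2.51 times (2.15 to 2.93) as high as in WT, both from low levels. Notch1 stood at 1.09 times (1.04 to 1.15).

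The 3 ligands were above WT in acinar-like cells. Dll1 stood at 17.5 CPM in Mettl3pKO and 9.51 CPM in WT, a ratio of 1.84 (1.59 to 2.13). Jag2 had a ratio of 1.70 (1.29 to 2.24), and Jag1, at 32.6 CPM in Mettl3pKO and 23.8 CPM in WT, one of 1.37 (1.25 to 1.51), short of the 1.5-fold line. Of the targets, Hes1 stood at 1.59 times WT (1.57 to 1.62) and Nrarp at 1.91 times (1.65 to 2.22). Lfng went the other way, at 0.820 times WT (0.783 to 0.859), and Rbpj stood at 1.23 times (1.13 to 1.35). The Hes1 ratio fell short of the 1.5-fold line under a scaling by trimmed means (1.46), under a stricter filter (1.47) and in cells of at least 13000 UMIs (1.497). The Dll1 ratio was 4.11 (2.21 to 8.65) in cells that had Y-linked but no Xist UMIs, 1101 in Mettl3pKO and 173 in WT. It was 1.73 (1.40 to 2.14) in cells that had Xist but no Y-linked UMIs, 432 in Mettl3pKO and 1366 in WT. The libraries thus differed in their mix of these cells, and the part of sex in the ratios was not tested.

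Acinar-like cells of the 2 libraries were not the same mixture, and this moved with the Notch genes. A cluster led by Serpina6 and Serpina10 held 32.6% of Mettl3pKO and 3.44% of WT acinar-like cells, and had Hes1 at 1200.4 CPM in Mettl3pKO and 1241 CPM in WT. A cycling cluster led by Ube2c held 29.1% and 4.63%, with Hes1 at 1074 and 983 CPM. The cluster richest in the digestive enzymes Prss1 and Cpb1 held 1.75% and 26.7%, with Hes1 at 566 and 503 CPM. Proliferating cells made up 85.5% of acinar-like cells in Mettl3pKO and 66.5% in WT, enzymes held 7.63% and 13.4% of their UMIs, and the progenitor factor Sox9 stood at 359 and 203 CPM.

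Within single acinar-like clusters the Hes1 ratios were closer to 1 than over the whole class. Over 7 clusters Hes1 ranged from 0.967 to 1.38 times WT with a median of 1.13, and Notch1 from 0.894 to 1.07. Dll1 ranged from 0.724 to 2.01 with a median of 1.68, higher in Mettl3pKO in 5 of 7 clusters. With the Mettl3pKO clusters weighted to the WT mix, the class ratios were 1.17 for Hes1, 1.42 for Dll1, 1.39 for Notch2, 1.59 for Notch3, 1.37 for Nrarp, 0.95 for Lfng and 0.99 for Jag2. Of the 6 genes called over the whole class, Notch3 was thus the gene still past 1.5-fold, with 178 UMIs in Mettl3pKO and 42 in WT over the class. The highest of its 7 cluster ratios, 4.83, was in the enzyme-rich cluster that holds 26.7% of WT acinar-like cells. Notch3 stood there at 1.67 CPM (0.0423 to 9.30) in 37 Mettl3pKO cells and 0.346 CPM in WT. The reweighted value therefore leans on very few UMIs, and whether it is past 1.5-fold cannot be told.

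**Figure D4:**
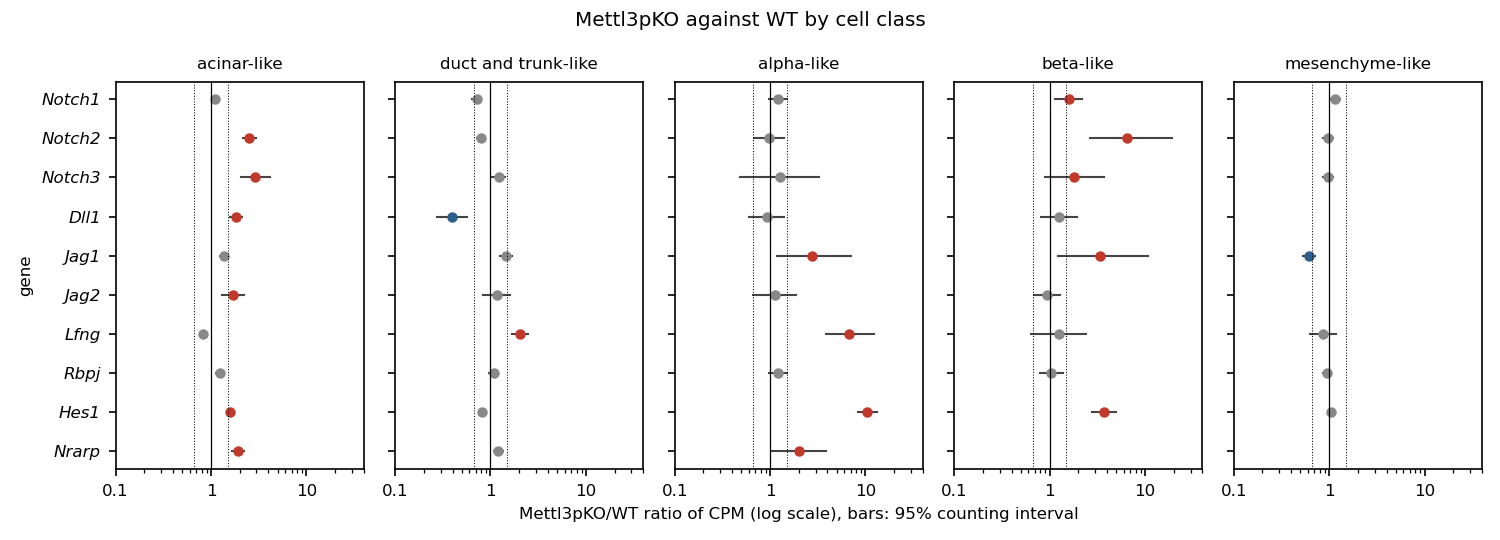
Mettl3pKO/WT ratio of CPM for each of the 10 genes in each compared class, on a logarithmic axis with 95% intervals of counting error and dotted lines at 1.5-fold; red marks genes at least 1.5-fold higher, blue at least 1.5-fold lower, grey neither, and interval ends past the axis are clipped. Acinar-like cells have 6 genes to the right of the line and none to the left, while duct and trunk-like cells have Lfng at 2.03 and Dll1 at 0.397.

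**Figure D5:**
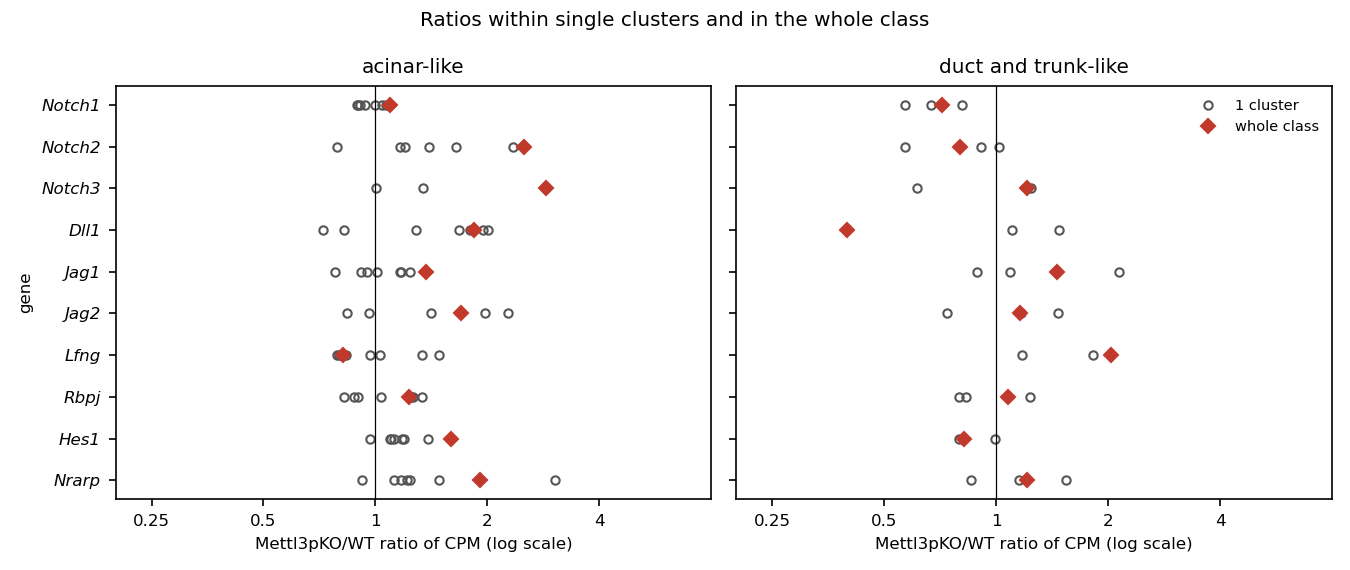
Mettl3pKO/WT ratio of CPM, on a logarithmic axis, within single clusters (open circles, clusters with 30 or more cells in each library) and over the whole class (red diamonds) for acinar-like and duct and trunk-like cells. A circle is drawn where the gene has 20 or more UMIs over both libraries in the cluster. Hes1 circles in acinar-like cells lie between 0.967 and 1.38, below the whole-class value of 1.59. The duct Dll1 circles lie at 1.10 and 1.47, above the whole-class value of 0.397. The Dll1 ratio of 0.659 in the remaining duct and trunk-like cluster, from 1 Mettl3pKO and 10 WT UMIs, is not drawn.

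In duct and trunk-like cells 1 gene, Lfng, was higher and 1, Dll1, was lower, where 11.7% of all measured genes were higher and 9.96% lower. The median log2 ratio of the 10 genes was 0.16 and that of all genes 0.00272. Dll1 stood at 5.11 CPM in Mettl3pKO and 12.9 CPM in WT, a ratio of 0.397 (0.273 to 0.565). Hes1 stood at 0.817 times WT (0.795 to 0.840), Notch1 at 0.715 times (0.641 to 0.796) and Notch2 at 0.798 times (0.730 to 0.872). Jag1 stood at 1.45 times (1.25 to 1.68) and Nrarp at 1.21 times (1.08 to 1.35), so that the 2 targets, Hes1 and Nrarp, lay on opposite sides of 1. Jag2, Notch3 and Rbpj had ratios of 1.16, 1.21 and 1.08.

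The duct and trunk-like value of Dll1 depended on which cells the class took in. Under a stricter filter (500 or more genes and up to 10% mitochondrial UMIs) the ratio was 1.21, without a filter 1.46, and at clustering resolution 2.0 it was 1.01. A cluster of this class held mostly WT cells: it had 19 Mettl3pKO and 451 WT cells, with Neurog3 at 1194 CPM and Dll1 at 34.5 CPM in WT. Its median was 9724 UMIs in WT, under the shallowest cell of the Mettl3pKO table. In the 3 clusters with 30 or more cells in both libraries Dll1 ranged from 0.659 to 1.47 times WT, each from few UMIs. Among cells with no Neurog3 UMI it stood at 4.46 CPM in Mettl3pKO and 2.43 CPM in WT, a ratio of 1.83 (1.08 to 3.12). Among those of them with under 1% digestive enzymes it was 3.10 and 2.34 CPM, a ratio of 1.33 (0.681 to 2.51), an interval that holds 1, so that no difference could be detected.

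Hes1, Notch1, Jag1 and Nrarp held their sides of 1 in the cells without Neurog3. Hes1 stood at 978 CPM in 427 Mettl3pKO cells and 1158 CPM in 1072 WT cells, a ratio of 0.845, and at a ratio of 0.786 (0.761 to 0.812) with under 1% enzymes. Notch1 had 0.715 and 0.629 in these 2 selections, Jag1 1.38 and 1.36, and Nrarp 1.12 and 1.32. Within the 3 clusters Hes1 ranged from 0.794 to 0.994 and Notch1 from 0.567 to 0.808, whereas Jag1, from 0.890 to 2.13, and Nrarp, from 0.853 to 1.54, lay on either side of 1. Proliferating cells made up 89.9% of this class in Mettl3pKO and 52.9% in WT.

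Lfng in duct and trunk-like cells stood at 29.4 CPM in Mettl3pKO and 14.5 CPM in WT, a ratio of 2.03 (1.68 to 2.46), while enzymes held 1.37% and 0.314% of the UMIs in this class and the acinar factors Ptf1a and Rbpjl stood at 69.5 and 5.08 CPM and at 131 and 23.9 CPM. Cells with 1% or more enzymes were 80 of 444 in Mettl3pKO and 25 of 1302 in WT. Without them the Lfng ratio was 1.12, and with marked doublets kept in both libraries it was 1.33. In cells that had Xist but no Y-linked UMIs it was 1.22 (0.760 to 1.88). In cells that had Y-linked but no Xist UMIs it was 2.35 (1.74 to 3.18). Among cells with no Neurog3 UMI the ratio was 3.58 (2.80 to 4.61). Among those of them with under 1% enzymes Lfng stood at 12.6 CPM in Mettl3pKO and 6.35 CPM in WT, a ratio of 1.98 (1.41 to 2.78). Within the 3 clusters it ranged from 1.17 to 1.82 times WT.

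In alpha-like cells 4 of the 10 genes were higher and 0 lower, where 11.4% of all genes were higher and 6.95% lower. The 4 were Hes1, Lfng, Jag1 and Nrarp. Hes1 stood at 222 CPM in Mettl3pKO and 21.5 CPM in WT, a ratio of 10.3 (8.26 to 13.1). However, 32 of 171 Mettl3pKO and 3 of 299 WT alpha-like cells carried 1% or more enzymes, and these held 75.2% and 18.2% of the class's Hes1 UMIs. Without them Hes1 stood at 4.19 times WT, Jag1 at 1.85 times and Lfng at 1.11 times. With the cells marked as doublets kept in both libraries, and the cells clustered anew (116 Mettl3pKO and 305 WT alpha-like cells), the ratios were 1.805 for Hes1, 0.508 for Jag1 and 0.715 for Nrarp, the last 2 on the other side of 1. Notch1, Notch2 and Dll1, at 1.21, 0.969 and 0.921 times WT, were not past the fold.

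In beta-like cells 5 of 9 measured genes were higher and 0 lower, where 12.9% of all genes were higher and 4.78% lower. Hes1 stood at 62.7 CPM in Mettl3pKO and 16.9 CPM in WT, a ratio of 3.71 (2.79 to 4.97), and Notch2 at 9.61 and 1.47 CPM, a ratio of 6.54 (2.64 to 19.4). Notch1 stood at 1.58 times WT (1.15 to 2.19), and at 1.32 times (0.965 to 1.801) with marked doublets kept. Jag1 (3.39 times) and Notch3 (1.82 times) rest on few UMIs, and stood at 0.688 and 0.320 times WT with marked doublets kept. Without the 6 Mettl3pKO and 4 WT cells with 1% or more enzymes the ratios were 2.83 for Hes1 and 6.17 for Notch2. With marked doublets kept these 2 were 0.976 and 1.45. Clustering anew with those cells also changed the class, to 153 Mettl3pKO and 391 WT beta-like cells, and the parts of both changes in the ratios were not told apart. Jag2 stood at 0.945 times WT.

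Outside the epithelium, Jag1 was the gene past 1.5-fold in mesenchyme-like cells. There 0 of 7 measured genes were higher and 1 lower, where 8.99% of all genes were higher and 6.26% lower. Jag1 stood at 63.2 CPM in Mettl3pKO and 102 CPM in WT, a ratio of 0.618 (0.536 to 0.711). It was below WT in each of the 3 mesenchyme-like clusters with enough cells, at 0.558, 0.587 and 0.759 times WT. In cells of at least 13000 UMIs the Jag1 ratio was 0.814 (0.644 to 1.03), an interval that holds 1, so that no difference could be detected there. In cells under 2 proliferation UMIs it was 0.446 (0.283 to 0.670). Proliferating cells made up 86.7% of the class in Mettl3pKO and 47.0% in WT. Notch1, Notch2, Notch3 and Hes1 had ratios of 1.15, 0.965, 0.975 and 1.05. Mesothelium-like cells had 5 genes higher and 3 lower of 9, where 14.0% and 13.0% of all genes were, immune cells 4 and 1 of 9 (18.4% and 10.5%), and erythroid-like cells 6 and 2 of 9 (28.9% and 28.2%). In these 3 classes enzymes held more of the Mettl3pKO UMIs than of the WT UMIs (1.44% and 0.194%, 1.22% and 0.239%, 5.24% and 2.46%). Cells with 1% or more enzymes were 12 of 75 Mettl3pKO and 3 of 202 WT mesothelium-like cells, and held 64.0% and 0% of the class's Hes1 UMIs. Without them Hes1 in mesothelium-like cells stood at 6.22 times WT, against 13.6 times with them. In immune cells they were 12 of 80 and 2 of 134, with 18.8% and 2.24% of the Hes1 UMIs. In erythroid-like cells they were 37 of 48 and 24 of 111, with 81.0% and 63.2%. The erythroid-like cells of the libraries lay in different clusters: 46 of 48 in Mettl3pKO and 42 of 111 in WT were in the enzyme-carrying cluster, and the other 69 WT cells in the cluster nearly free of enzymes. Within the enzyme-carrying cluster Hes1 stood at 1.20 times WT (1.05 to 1.37) and Notch1 at 1.06 times (0.733 to 1.54), against 3.12 and 2.76 times over the class.

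Over every epithelial cell, where the mix of classes enters, 1 gene, Jag1, was higher (1.51 times WT, 1.40 to 1.63) and 0 were lower, where 9.32% of all genes were higher and 23.0% lower. Notch2 stood there at 0.771 times and Hes1 at 1.44 times. Over every kept cell 0 genes were higher and 1 lower, where 6.77% and 27.3% of all genes were. Jag1 then stood at 0.999 times, with 34.1 CPM in either library.

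The other 50 pathway genes, which mature, cut, degrade or assist the receptors and ligands, were read against the same shares of all genes. In acinar-like cells 9 of 45 measured were higher and 2 lower, near the 20.9% and 8.87% of all genes, with a median log2 ratio of 0.27 beside 0.16 over all genes. Furin, the protease that matures Notch receptors, stood at 72.2 CPM in Mettl3pKO and 29.6 CPM in WT, a ratio of 2.44 (2.25 to 2.64), and Neurl1b, a ligand ubiquitin ligase, at 2.26 times WT. The receptor Notch4 stood at 0.283 times and Neurl1a at 0.339 times. In duct and trunk-like cells 2 of 45 were higher and 7 lower, where 11.7% and 9.96% of all genes were, with a median of 0.01. The ligand Dll4 stood there at 3.90 CPM in Mettl3pKO and 7.51 CPM in WT, a ratio of 0.519, and the gamma-secretase parts Aph1c and Aph1b at 0.399 and 0.601 times. Adam10, the protease that cuts ligand-bound Notch, stood at 145 and 105 CPM, a ratio of 1.38, not past the fold. In alpha-like cells 1 of 42 was higher and 3 lower (11.4% and 6.95% of all genes), and in beta-like cells 3 of 40 were higher and 0 lower (12.9% and 4.78%). Dtx4 stood at 2.68 times and Dner, a Notch-binding protein, at 0.509 times in alpha-like cells, and Neurl1b at 1.58 times in beta-like cells.

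The genes most like each of the 10 in WT were looked up by Pearson's r of log2(CPM + 1) over 13 classes among 7761 genes. Notch3 lay closest to Prss35 (r = 0.970) and Myl9 (0.936), a smooth-muscle myosin light chain. Jag1 lay closest to Sept11 (0.912) and Spry1 (0.895), a growth-factor antagonist, Nrarp to Edn1 (0.860) and Pdgfb (0.853), both endothelial ligands, and Hes1 to Taf1d (0.930). Dll1 stayed under 50 CPM in each class, below the level set for this look-up. The classes share a library and differ in depth, so these values describe the likeness of profiles only.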

How the data were processed

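The authors deposited 1 table per library with unscaled UMI counts for each gene in each cell. The BD Rhapsody whole-transcriptome pipeline, version 1.8, made them, per the file headers. The submitters' processing notes name mm10 and Seurat but not the role of Seurat. Each table ended inside a line, so 1 cell per library was dropped, and shallower cells were not analysed here. Cells with 200 or more genes and at most 25% mitochondrial UMIs were kept, Scrublet marked 338 of 6372 WT and 1 of 3623 Mettl3pKO cells as doublets, and 3622 Mettl3pKO and 6034 WT cells remained. Scanpy 1.11.5 (numpy 2.4.6, scipy 1.17.1) scaled cells to 10000 UMIs and clustered them on 2000 variable genes without globin, mitochondrial, ribosomal, sex-linked and Notch genes (30 components, 15 neighbours, Leiden resolution 1.0, 28 clusters, no integration). A cluster took the class whose markers, of 20 lists, stood highest; clusters whose doublet scores had a median over 0.1 were left unnamed.

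Levels are CPM of UMIs summed per library and class, with exact Poisson intervals; ratios carry exact conditional binomial and shares Clopper-Pearson intervals. A count of 0 was read as allowing 3 counts, and log2 ratios had 0.5 UMIs added. A cell with 2 or more UMIs over 9 proliferation genes, counted without thinning, was called proliferating. All 10 genes are described; of the other pathway genes, those named come from the 3 highest and 3 lowest ratios per class at 50 or more UMIs. The genes, lists and classes were chosen with earlier results of these data known. The computations were tested on simulated data. Alternatives covered filters, doublets, clustering, scaling, depth and thresholds.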

Additional observations from a re-analysis of the deposited data

How the results depend on the processing

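With 1 library per genotype no replicate could be left out. No paired analysis was possible because the labels give no replicate numbers. Of the alternative values of the 10 genes' ratios, 883 lay inside the counting interval of the main value and 155 lay outside it. Another 16 were reversed, which means that a main ratio past 1.5-fold came to lie on the other side of 1. Main ratios not past 1.5-fold that crossed 1 were not counted as reversed. The reversals were these. For Dll1 in duct and trunk-like cells the ratio was 1.21 under the stricter filter (500 or more genes, up to 10% mitochondrial UMIs), 1.46 without a filter and 1.01 at resolution 2.0. For Nrarp in alpha-like cells it was 0.815 with the stricter filter, 0.715 with doublets kept and 0.859 at resolution 2.0. For Jag1 in alpha-like cells it was 0.508 with doublets kept and 0.842 in cells under 2 proliferation UMIs. In beta-like cells Notch3 was at 0.320 with doublets kept, 0.983 at resolution 2.0 and 0.607 in cells under 2 proliferation UMIs, while Jag1 was at 0.688 and Hes1 at 0.976 with doublets kept. With each cell classed by its own markers Nrarp was at 0.851 in mesothelium-like and Notch2 at 1.02 in erythroid-like cells. Jag2 in acinar-like cells was at 0.987 when reweighted to the WT mix of clusters. The cause of each was not tested.

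Of all 60 Notch genes, 17 of 55 measured were past 1.5-fold in acinar-like cells, where 20.9% of all genes were higher and 8.87% lower, 7 at 2-fold and 6 after reweighting. In duct and trunk-like cells 11 of 55 were (11.7% and 9.96% of all genes), and 4 at 2-fold. In alpha-like cells 8 were (11.4% and 6.95%), with 14 without a UMI minimum, 4 at 2-fold, 4 with doublets kept, 5 at resolution 2.0 and 5 in cells under 2 proliferation UMIs. In beta-like cells 8 were (12.9% and 4.78%), with 3 at a minimum of 50 UMIs, 14 without one, 4 at 2-fold, 5 without a filter, 5 with the top 5% of doublet scores removed, 13 at resolution 0.5, 5 at resolution 2.0 and 3 in cells under 2 proliferation UMIs. The shares of all genes given here belong to the main setting, and the main counts of Notch genes lay near them. No share of all genes was computed for the alternatives, so their counts show no result particular to the Notch genes. With at least 2 UMIs the Mettl3pKO/WT ratio of the ligand share in acinar-like cells was 2.21 (1.44 with 1 UMI) and that of the receptor share in duct and trunk-like cells 0.754 (0.937 with 1 UMI). Between Neurog3-rich and Neurog3-free WT cells, Dll1 stood at 40.2 times and Hes1 at 0.465 times. These were 12.6 and 0.826 in all epithelial cells other than acinar-like ones, and 66.0 and 0.730 in cells of at least 13000 UMIs.

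A set of 4 settings was chosen after seeing the data: cells under 1% digestive enzymes (for class ratios and for the Neurog3 groups), reweighting to the WT clusters, and the 13000-UMI floor for the Neurog3 groups. Beta-like cells with an Xist UMI were too few to compare. Depth limits Jag2, Nrarp and Dll1 in the small endocrine classes. The lack of Mettl3pKO cells under 10719 UMIs, whose reason is not known, limits every share.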
